A study of Mus musculus with 20 samples.

Results

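Inhba, Chrna6, Ctxn3, Emp2, Rreb1 and Asb10 are 6 of the 43346 genes annotated in a bulk RNA-seq table of mouse cortex. They were chosen from the same table as the genes with the strongest differences between Abca7 knockin and control mice that lie outside chromosome 10, which carries Abca7, and outside sterol synthesis. The knockin and control differences therefore chose the genes, and they are given below as a description with no test. The age difference averaged over genotypes sets both genotypes of an age against both of the other, took no part in the choice and is tested. Age differences within a genotype and the interaction of genotype and age share libraries with the contrasts that chose the genes, so for the 6 genes they are values with no test.

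The groups used were KI at 10 months, control at 10 months, KI at 3 months and control at 3 months, with 5 libraries each. Every group carried the 5xFAD transgenes (5xFAD+/-), human amyloid precursor protein and presenilin genes with familial Alzheimer's disease mutations under the neuronal Thy1 promoter, so each comparison is made within an amyloid model. KI libraries came from mice with an alanine-to-serine knockin in Abca7, a lipid transporter encoded at a risk locus for the disease; the series title calls the allele A696S and the growth protocol A693S. Control animals were Abca7WT/WT. The protocol speaks of male littermates and names both heterozygous and homozygous knockin animals; which of these gave the KI libraries is not in their labels. Nothing in the labels ties the libraries to separate animals. The p-values below therefore reflect only library-to-library spread, whose technical part is not known. By the Xist and Ddx3y counts below, the KI libraries at 10 months did not all come from the same animal.

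The 6 genes have different roles. Inhba encodes the subunit that pairs to form activin A, a secreted ligand of the TGF-beta family whose type II and type I receptors phosphorylate SMAD proteins; in neurons its transcription follows activity. Chrna6 encodes a subunit of nicotinic acetylcholine receptors, which open as cation channels when acetylcholine binds. Ctxn3 and Emp2 encode small membrane proteins, Rreb1 a zinc finger transcription factor, and Asb10 an adapter of the ubiquitin ligases built on Cullin 5.

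Library totals ran from 42896149 to 57447015 counts, and 19623 genes, all 6 among them, passed the filter on low counts. All 7 cortex markers examined were present in each library, with at least 36803 counts of Slc17a7, the vesicular glutamate transporter of cortical excitatory neurons. A pair of libraries stood apart. In KI replicate 5 at 10 months Xist reached 54206 counts and the Y-linked gene Ddx3y only 1, although the protocol names males. In all other libraries Xist had at most 218 counts and Ddx3y at least 2382. KI replicate 3 at 3 months lay at 55.2 on the second principal component, beyond every other library. In the whole table, 12 genes (0.0612%; 0.0357% higher and 0.0255% lower in KI) passed an adjusted p of 0.05 between KI and control at 10 months, 5 (0.0255%; 0.0102% higher and 0.0153% lower) at 3 months and 15 (0.0764%; 0.0459% higher and 0.0306% lower) averaged over ages, by edgeR's quasi-likelihood test with Benjamini-Hochberg adjustment.

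Per kilobase of exon, Emp2 was the highest of the 6 with a mean of 7.74 RPKM over all libraries. Rreb1 averaged 5.68 RPKM, Ctxn3 3.40 RPKM, Inhba 1.47 RPKM, Chrna6 0.362 RPKM and Asb10 0.355 RPKM. Relative to its mean, Asb10 spanned the widest range of the 6, with 0.0290 to 0.948 RPKM in single libraries. All other values below are counts per 1e6 mapped counts (CPM), which compare a gene only with itself.

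**Figure D1:**
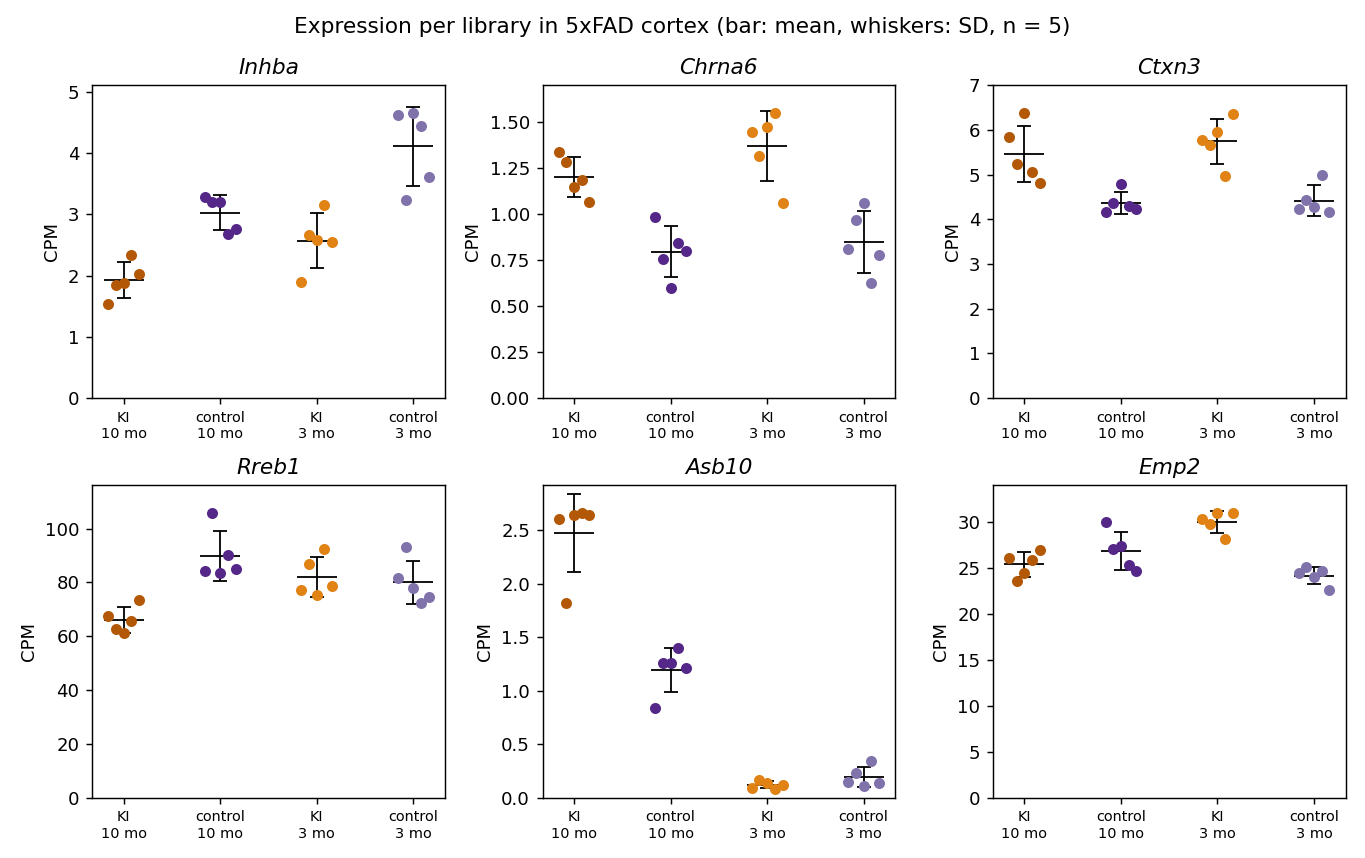
Expression of the 6 genes in CPM (y axis, starting at 0) in each of 20 libraries, with KI left of control at 10 and at 3 months; points are libraries, bars means and whiskers SD (n = 5). Inhba is lower and Chrna6 higher in every KI library than in any control library of the same age, while Asb10 is under 0.35 CPM in every library at 3 months and between 0.843 and 2.66 CPM at 10 months.

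Between genotypes, 5 of the 6 genes had no overlap between KI and control libraries at 10 months, beside 1.49% of all tested genes (0.907% higher and 0.586% lower): Inhba and Rreb1 were lower in KI, and Chrna6, Ctxn3 and Asb10 higher. At 3 months 3 of the 6 had no overlap, beside 0.657% of tested genes (0.306% higher and 0.352% lower): Inhba was lower in KI, and Chrna6 and Emp2 higher. The choice of the genes used these contrasts, so nothing is read from either count. Inhba, Chrna6 and Ctxn3 differed in the same direction at both ages, whereas Rreb1, Asb10 and Emp2 owed their place to a single age. Without both libraries that stood apart, the averaged log2 fold changes of KI over control were -0.62 for Inhba, 0.64 for Chrna6 and 0.32 for Ctxn3. Without them Rreb1 stood at -0.42 and Asb10 at 1.01 at 10 months, and Emp2 at 0.31 at 3 months.

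**Figure D2:**
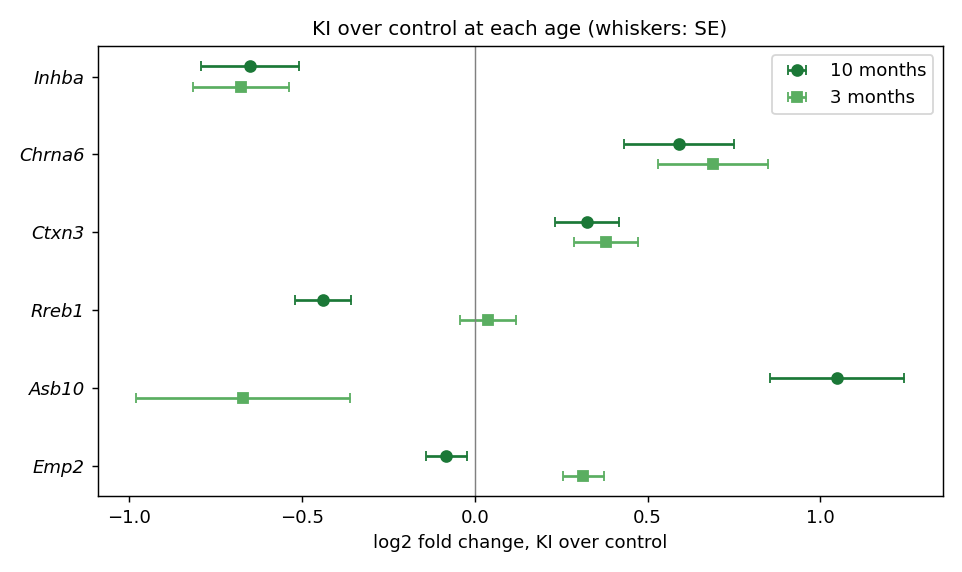
Log2 fold change of KI over control (x axis) for the 6 genes at 10 months (circles) and 3 months (squares), with whiskers of 1 SE from the edgeR fit. Inhba lies at -0.65 and -0.68, Chrna6 at 0.59 and 0.69 and Ctxn3 at 0.32 and 0.38 at 10 and 3 months, while Rreb1, Asb10 and Emp2 are apart at the 2 ages; these contrasts chose the genes and carry no test.

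The choice had no sharp edge. At 10 months Asb10 and Rreb1 held ranks 2 and 3 by unadjusted p among 18703 genes that lie off chromosome 10 and outside sterol synthesis, and Kcnip4, at a log2 fold change of 0.34 ± 0.07 (SE), followed at rank 4 without being chosen. Rnase4, at 0.42 ± 0.09 and also not chosen, stood at rank 7, above Inhba at rank 9. Auts2, at -0.27 ± 0.06, stood at rank 11 at 10 months, just below Inhba. Chrna6 and Ctxn3 held ranks 63 and 95 at that age. At 3 months Emp2 and Inhba held ranks 2 and 3, Wipf3 rank 4 at -0.42 ± 0.09 and Chrna6 rank 5. Pvr, not chosen, held rank 6 at 0.35 ± 0.09, and Ctxn3 rank 8. Averaged over ages, Inhba, Chrna6 and Ctxn3 held ranks 2 to 4 and Auts2 followed at rank 5 with -0.22 ± 0.04.

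Inhba was lower in KI at both ages and was lower at 10 than at 3 months. The gene lies at chr13:16011851-16027211 on the plus strand (mm10), and its RefSeq promoter window of 250 bases before the start (GRCm38.p6, chr13:16011601-16011850, plus strand) is shown because Inhba differed at both ages; capitals mark TATAAA, found once, 91 bases before the start.
Inhba: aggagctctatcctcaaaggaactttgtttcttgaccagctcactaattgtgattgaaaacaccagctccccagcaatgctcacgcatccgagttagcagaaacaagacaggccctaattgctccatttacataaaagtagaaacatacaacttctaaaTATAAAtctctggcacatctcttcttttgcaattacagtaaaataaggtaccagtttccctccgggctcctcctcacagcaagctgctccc
TATAAA on either strand occurred in 12.4% of 32851 promoter windows of the same length. The cyclic AMP response element TGACGTCA, its core TGACG, and the AP-1 letters TGANTCA, searched on both strands, were not found in this window; they occurred in 1.55%, 17.8% and 6.75% of windows. SMAD letters GTCT occurred once, on the minus strand, as in 82.9% of windows. At 10 months Inhba had 1.53, 1.86, 1.87, 2.33 and 2.03 CPM in KI replicates 3 to 7, against 3.29, 3.20, 3.20, 2.67 and 2.77 CPM in control replicates 6 to 10. At 3 months it had 1.89, 2.67, 2.58, 3.15 and 2.56 CPM in KI replicates 3 to 7, against 4.62, 3.23, 4.65, 4.44 and 3.61 CPM in control replicates 6 to 10. Every KI library lay below every control library of its age. The log2 fold change of KI over control was -0.65 ± 0.14 (SE) at 10 months and -0.68 ± 0.14 at 3 months, or 0.637 and 0.626 of the control level. Without KI replicate 3, the lowest KI library at 3 months, the value at 3 months was -0.58 ± 0.14.

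With age, 2 of the 6 genes passed the test averaged over genotypes, Inhba lower and Asb10 higher, beside 12.1% of all tested genes (8.19% higher and 3.95% lower). Asb10 had passed the low-count filter through its libraries at 10 months, where it was high. Inhba fell by 0.43 ± 0.10 (SE) on the log2 scale at 10 against 3 months averaged over genotypes (edgeR adjusted p = 0.00536). Within the genotypes it stood at -0.42 ± 0.14 in KI and -0.44 ± 0.14 in control libraries. Without both libraries that stood apart, the averaged difference was -0.47 ± 0.10 for Inhba (edgeR adjusted p = 0.00238). Group means were 1.92 ± 0.292 CPM in KI and 3.03 ± 0.284 CPM in control libraries at 10 months, and 2.57 ± 0.450 CPM in KI and 4.11 ± 0.648 CPM in control libraries at 3 months (SD, n = 5). Groups next to each other when ordered by mean overlapped. These were control libraries of the 2 ages, control at 10 months and KI at 3 months, and KI libraries of the 2 ages.

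The age call of Inhba was lost with either of a pair of marker scores in the fit. With a thalamus score as a covariate the averaged age difference was -0.41 ± 0.17 (edgeR adjusted p = 0.290), and with a microglia score it turned to 0.018 ± 0.60 (edgeR adjusted p = 0.998). The microglia score ran from 0.507 to 1.09 at 10 months and from -0.973 to -0.549 at 3 months, so its part and that of age cannot be told apart, and 0 of 19623 genes were called for age beside it. The thalamus score did not overlap between KI libraries of the 2 ages either, at -0.677 to -0.415 at 10 months and 0.541 to 1.60 at 3 months.

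Of 28 genes of activin signalling, 27 were tested, and 6 were lower and 0 higher with age averaged over genotypes, beside 3.95% lower and 8.19% higher of all tested genes. Inhba was among them, as were Inhbb, the other activin beta subunit of brain, at -0.28 ± 0.09 (SE; edgeR adjusted p = 0.0422), and Igsf1, a membrane protein, at -0.52 ± 0.15 (edgeR adjusted p = 0.0290). The type I receptor gene Acvr1b fell by 0.16 ± 0.05 (edgeR adjusted p = 0.0315), Smad4, the common SMAD, by 0.22 ± 0.05 (edgeR adjusted p = 0.00530), and Smurf2, a ubiquitin ligase that acts on SMADs and receptors, by 0.18 ± 0.05 (edgeR adjusted p = 0.0211). The median log2 fold change of the 27 was -0.11, against -0.003 over all tested genes. Thalamus markers fell in the same comparison, 7 of 8 tested with a median of -0.82, and with the thalamus score as a covariate 40 genes of the whole table were called lower with age, against 776 without it. Their part in the lower calls of this and the following gene lists was not tested. Between genotypes averaged over ages the median of the 26 genes other than Inhba was -0.02, against 0.003 over all tested genes, and 11 of the 26 lay above 0. Inhibin alpha (Inha), which pairs with the same beta subunits, averaged 21.8 CPM (KI) and 23.7 CPM (control) at 10 months, against 24.03 CPM (KI) and 25.1 CPM (control) at 3 months.

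A set of 24 immediate-early genes, which respond to neuronal activity as Inhba does, stood on opposite sides of 0 at the 2 ages. At 10 months 2 of the 24 lay above 0 for KI over control (median -0.16), and at 3 months 22 of the 24 did (median 0.41). At either age 0 of the 24 were called, beside 0.0612% of all tested genes at 10 months and 0.0255% at 3 months. The part of the 24 in the result was not tested. Over the 20 libraries, the genes whose deviations from their group means were most like those of Inhba were Klhl3 (Pearson's r = 0.79), Eif4g1 (r = 0.75) and Synj2 (r = 0.69), among 13710 genes compared. No gene within 500 kb of Inhba was called in any genotype comparison, where at most 0.0764% of all tested genes were. The only one tested within that distance, Gli3, stood at -0.07 ± 0.06 for KI over control averaged over ages.

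Chrna6 was higher in KI at both ages and did not pass the test with age. It lies at chr8:27403214-27413944 on the minus strand, with its receptor partner gene Chrnb3 3485 bases away. At 10 months Chrna6 had 1.33, 1.28, 1.14, 1.18 and 1.06 CPM in KI replicates 3 to 7, against 0.983, 0.755, 0.598, 0.843 and 0.796 CPM in control replicates 6 to 10. At 3 months it had 1.44, 1.31, 1.47, 1.55 and 1.06 CPM in KI replicates 3 to 7, against 0.809, 0.965, 1.06, 0.623 and 0.778 CPM in control replicates 6 to 10. KI libraries lay above all control libraries of their age, by a narrow margin at 3 months, where the lowest KI library had 1.061 CPM and the highest control library 1.056 CPM. The log2 fold change of KI over control was 0.59 ± 0.16 (SE) at 10 months and 0.69 ± 0.16 at 3 months. The gene is low: counts ran from 57 to 69 in KI and from 29 to 49 in control libraries at 10 months, and from 61 to 76 in KI and from 31 to 47 in control libraries at 3 months. With age Chrna6 stood at -0.13 ± 0.11 averaged over genotypes (edgeR adjusted p = 0.493).

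Group means of Chrna6 were 1.20 ± 0.109 CPM in KI and 0.795 ± 0.140 CPM in control libraries at 10 months, and 1.37 ± 0.190 CPM in KI and 0.846 ± 0.169 CPM in control libraries at 3 months (SD, n = 5). Libraries of the same genotype overlapped between ages. Chrnb3, whose product joins Chrna6 in receptors, stood at 0.12 ± 0.11 for KI over control averaged over ages. In the midbrain Chrna6 is a gene of dopaminergic neurons, and markers of that cell type were also counted. Of 8 such markers, Ddc and Aldh1a1, which other cells also express, had at least 240 counts per library, and Th, the rate-limiting enzyme of dopamine synthesis, had 21 to 117, in the range of Chrna6 itself. The dopamine transporter gene Slc6a3 had 8 to 25 counts per library, Slc18a2 had 4 to 40, and the transcription factor genes Pitx3, En1 and Foxa2 had 0 counts in 13, 15 and 16 of 20 libraries. The summed level of the 8 ran from 30.2 to 43.4 CPM in KI and from 24.2 to 39.9 CPM in control libraries at 10 months, and from 32.6 to 54.9 CPM in KI and from 26.4 to 46.6 CPM in control libraries at 3 months. Of the 5 tested, 3 lay above 0 for KI over control at 10 months and 2 at 3 months. At either age 0 of the 5 were called, beside 0.0612% of all tested genes at 10 months and 0.0255% at 3 months. The part of these markers in the result was not tested. In cortex Chrna6 marks some deep-layer projection neurons, and the score of 6 markers of layer 5 subcortical neurons overlapped between KI and control, at -0.0903 to 0.00257 in KI and -0.0877 to 0.231 in control libraries at 10 months, and at -0.0974 to 0.0860 in KI and -0.0852 to 0.119 in control libraries at 3 months. Over the 20 libraries the deviations of Chrna6 from its group means stood at Pearson's r = -0.43 with those of the layer 5 score. With those of a score of the dopaminergic markers they stood at r = -0.36. In bulk tissue, fewer cells of a type and less RNA per cell cannot be told apart.

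Of 23 genes of nicotinic receptors and their chaperones and prototoxins, 22 were in the table and 18 were tested. With age averaged over genotypes 2 of the 18 were lower and 1 higher, beside 3.95% lower and 8.19% higher of all tested genes. Chrna3, a subunit best known from autonomic ganglia, fell by 0.91 ± 0.19 (SE; edgeR adjusted p = 0.00194), and Chrna7, the subunit of homomeric receptors, by 0.36 ± 0.08 (edgeR adjusted p = 0.00220). Ly6e, of the Ly6 family of membrane-anchored proteins, rose by 0.23 ± 0.05 (edgeR adjusted p = 0.00559). The median of the 18 was -0.03, against -0.003 over all tested genes. Per length, Chrna6 at 0.362 RPKM was far below the main cortical subunits, with 14.0 RPKM for Chrnb2 and 10.6 RPKM for Chrna4, and close to Chrnb3 at 0.440 RPKM. The genes with deviations most like those of Chrna6 were Lrrc6 (r = 0.62), Lrrc27 (r = 0.62) and Tril (r = 0.62), over 20 libraries.

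Ctxn3 was higher in KI at both ages by a smaller factor and did not pass the test with age. It encodes cortexin 3, a small single-pass membrane protein of brain and kidney, and lies at chr18:57468486-57478134 on the plus strand. At 10 months Ctxn3 had 5.85, 5.25, 6.37, 5.07 and 4.82 CPM in KI replicates 3 to 7, against 4.17, 4.37, 4.79, 4.29 and 4.23 CPM in control replicates 6 to 10. At 3 months it had 5.77, 5.67, 5.97, 4.98 and 6.37 CPM in KI replicates 3 to 7, against 4.23, 4.43, 4.27, 5.00 and 4.16 CPM in control replicates 6 to 10. At 10 months the genotypes did not overlap, and at 3 months 4 of 5 KI libraries lay above every control library. The log2 fold change of KI over control was 0.32 ± 0.09 (SE) at 10 months and 0.38 ± 0.09 at 3 months. KI replicate 5 was the highest library at 10 months, and without it the value at 10 months was 0.26 ± 0.09. With age Ctxn3 stood at -0.04 ± 0.07 averaged over genotypes (edgeR adjusted p = 0.739).

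An antisense gene, 4930511M06Rik, spans Ctxn3 on the other strand. The strand setting of the counting was not given in the sources used here, so reads of the pair cannot be told apart; the antisense gene had at most 26 counts in a library, against 182 to 366 for Ctxn3. The other cortexin genes, Ctxn1 and Ctxn2, were both tested and neither passed in any comparison. At 10 months Ctxn1 averaged 279 CPM (KI) and 277 CPM (control), and Ctxn2 averaged 10.2 CPM (KI) and 8.49 CPM (control). Prrc1, the neighbour of Ctxn3 on the lower side, lies 75767 bases away and did not pass with age. The genes with deviations most like those of Ctxn3 were Gng5 (r = 0.89), Btbd19 (r = 0.80) and Aard (r = 0.80), over 20 libraries.

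Emp2 was chosen for its higher level in KI at 3 months, and it overlapped between genotypes at 10 months. It encodes epithelial membrane protein 2, a tetraspan protein of the PMP22 family that takes part in integrin and caveolin trafficking, and lies at chr16:10281749-10313968 on the minus strand. Its promoter window (RefSeq, GRCm38.p6, chr16:10313969-10314218, minus strand) is shown because Emp2 was chosen for its difference at 3 months; capitals mark the GC box GGGCGG, found on the sense strand 163 bases and on the other strand 31 bases before the start.
Emp2: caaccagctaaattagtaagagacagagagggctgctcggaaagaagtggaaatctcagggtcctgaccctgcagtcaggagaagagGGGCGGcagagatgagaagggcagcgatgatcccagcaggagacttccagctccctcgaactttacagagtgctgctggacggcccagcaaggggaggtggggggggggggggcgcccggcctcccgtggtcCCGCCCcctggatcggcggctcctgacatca
GGGCGG on either strand occurred in 32.7% of windows. At 10 months Emp2 had 26.1, 23.7, 24.4, 25.9 and 26.9 CPM in KI replicates 3 to 7, against 30.0, 27.05, 27.4, 25.4 and 24.7 CPM in control replicates 6 to 10. At 3 months it had 30.4, 29.8, 31.0, 28.2 and 31.0 CPM in KI replicates 3 to 7, against 24.5, 25.1, 24.04, 24.7 and 22.6 CPM in control replicates 6 to 10. The genotypes overlapped at 10 months and were apart at 3 months. The log2 fold change of KI over control was -0.08 ± 0.06 (SE) at 10 months and 0.31 ± 0.06 at 3 months.

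With age Emp2 stood at -0.04 ± 0.04 averaged over genotypes and did not pass the test (edgeR adjusted p = 0.561). In KI libraries it averaged 25.4 ± 1.34 CPM at 10 months and 30.1 ± 1.17 CPM at 3 months (SD, n = 5), a log2 fold change of -0.24 ± 0.06 (SE). In control libraries it averaged 26.9 ± 2.06 CPM at 10 months and 24.2 ± 0.937 CPM at 3 months, a log2 fold change of 0.15 ± 0.06. Between KI libraries of the 2 ages, 3 of the 6 genes had no overlap, Rreb1 and Emp2 lower and Asb10 higher at 10 months, beside 7.17% of all tested genes (5.34% higher and 1.83% lower). The KI libraries of a single age chose each of these 3, so nothing is read from the count.

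Markers of the choroid plexus moved with Emp2. All 10 lay above 0 for KI over control at 3 months (median log2 fold change 0.89) and 0 of 10 at 10 months (median -0.88). Of the 10, 0 were called at either age, beside 0.0255% of all tested genes at 3 months and 0.0612% at 10 months. The summed level of the 10 ran from 316 to 2431 CPM in KI and from 317 to 3462 CPM in control libraries at 10 months. At 3 months it ran from 355 to 3389 CPM in KI and from 378 to 2091 CPM in control libraries. None of the 10 was at 0 in any library. With the choroid plexus score as a covariate, Emp2 stood at -0.05 ± 0.06 (SE) for KI over control at 10 months and at 0.30 ± 0.05 at 3 months. Over the 20 libraries the deviations of Emp2 from its group means went with those of the score (Pearson's r = 0.67). All 9 meninges markers also lay above 0 at 3 months (median 0.43), as did all 8 tested thalamus markers (median 0.53). The part of the meninges in the result was not tested, and with the thalamus score as a covariate Emp2 at 3 months stood at 0.36 ± 0.08.

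**Figure D3:**
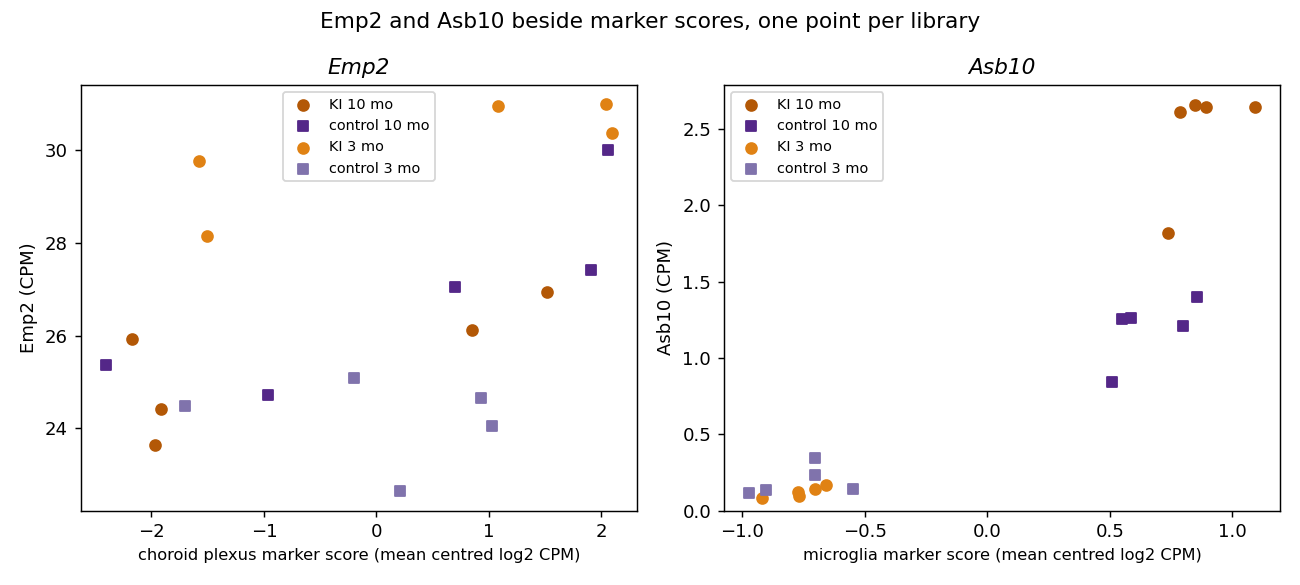
Level of Emp2 (left, CPM, axis not from 0) against the choroid plexus marker score and of Asb10 (right, CPM) against the microglia marker score, each score being the mean of centred log2 CPM over its marker list; each point is a library, circles KI and squares control. Emp2 tends to be higher at higher choroid plexus scores (r = 0.67 of deviations from group means), and Asb10 is at or above 0.843 CPM in all libraries with a microglia score of 0.507 or more.

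Of 7 genes of the PMP22 and EMP family, 6 were tested. Pmp22, a protein of compact myelin in peripheral nerve, rose by 0.65 ± 0.05 (SE) with age averaged over genotypes (edgeR adjusted p = 1.71e-08), and the other 5 did not pass. Of all tested genes 12.1% passed (8.19% higher and 3.95% lower). The median of the 6 was -0.01, against -0.003 over all tested genes. Of 8 integrin and caveolin genes that work with EMP2, Itgb3 rose by 0.55 ± 0.08 (edgeR adjusted p = 2.48e-05) and Itga5 by 0.51 ± 0.09 (edgeR adjusted p = 0.000344). These were the only 2 called in the same comparison, and the median of the 8 was 0.04. The genes with deviations most like those of Emp2 were Hydin (r = 0.79), Dnah11 (r = 0.79) and Ace (r = 0.78), over 20 libraries.

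Rreb1 was lower in KI at 10 months and overlapped between genotypes at 3 months. It encodes the Ras-responsive element binding protein, a zinc finger factor that works with SMADs and the CtBP corepressors, and lies at chr13:37778400-37952002 on the plus strand. RefSeq gives it 4 promoter windows. At 10 months Rreb1 had 67.6, 62.6, 61.2, 65.7 and 73.6 CPM in KI replicates 3 to 7, against 84.2, 106, 83.6, 90.3 and 84.9 CPM in control replicates 6 to 10. At 3 months it had 77.0, 87.0, 75.3, 92.5 and 78.8 CPM in KI replicates 3 to 7, against 81.7, 93.1, 78.0, 72.4 and 74.8 CPM in control replicates 6 to 10. All KI libraries at 10 months were below all libraries of the other groups with 1 exception, the control library at 3 months with 72.4 CPM, which KI replicate 7 exceeded. The log2 fold change of KI over control was -0.44 ± 0.08 (SE) at 10 months and 0.04 ± 0.08 at 3 months.

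Rreb1 averaged 66.2 ± 4.88 CPM at 10 months and 82.1 ± 7.34 CPM at 3 months in KI libraries (SD, n = 5), and the ages did not overlap. As a log2 fold change this was -0.31 ± 0.08 (SE). In control libraries Rreb1 averaged 89.8 ± 9.34 CPM at 10 months and 80.0 ± 8.11 CPM at 3 months, a log2 fold change of 0.17 ± 0.08. Averaged over genotypes Rreb1 stood at -0.07 ± 0.06 with age and did not pass the test (edgeR adjusted p = 0.466).

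All 15 genes of the CtBP corepressor list were tested. Rcor1, a scaffold of the histone demethylase and deacetylase complex, fell by 0.16 ± 0.04 (SE) with age averaged over genotypes (edgeR adjusted p = 0.0189), the only call among the 15, beside 3.95% lower and 8.19% higher of all tested genes. Of the 14 genes other than Rreb1, 2 were lower with age in KI libraries, beside 8.06% of all tested genes (5.66% higher and 2.41% lower): Rcor1 at -0.24 ± 0.06 (edgeR adjusted p = 0.0152) and Zfp516, another zinc finger gene, at -0.31 ± 0.08 (edgeR adjusted p = 0.0246). Thalamus markers were lower in KI libraries too, 7 of 8 with a median of -1.17. With the thalamus score as a covariate 19 genes of the whole table were called lower, against 472 without it. Higher calls dropped too, to 238 against 1110. Without Rreb1 the median of the list for KI over control at 10 months was -0.07, against 0.0002 over all tested genes, with 5 of 14 above 0. The genes with deviations most like those of Rreb1 were Rccd1 (r = 0.82), Best1 (r = 0.75) and Zfp783 (r = 0.75), over 20 libraries. Among 7 tested genes within 500 kb, 0 were called between genotypes, beside at most 0.0764% of all tested genes in any genotype comparison. Ly86, a gene of myeloid cells, was the only one of the 7 called with age averaged over genotypes, at 2.02 ± 0.11 (edgeR adjusted p = 2.28e-11), beside 12.1% of all tested genes. The nearest, Ssr1, stood at 0.01 ± 0.05 with age.

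Asb10 was very low at 3 months and rose with age averaged over genotypes; it was chosen for its higher level in KI at 10 months. It encodes an ankyrin repeat protein with a SOCS box, the part that binds the ligase, and lies at chr5:24532697-24540978 on the minus strand. Its promoter window (RefSeq, GRCm38.p6, chr5:24540979-24541228, minus strand) is shown because Asb10 has the largest age difference of the 6 genes; capitals mark GGAA and its complement TTCC, the core letters bound by ETS factors such as PU.1 of myeloid cells.
Asb10: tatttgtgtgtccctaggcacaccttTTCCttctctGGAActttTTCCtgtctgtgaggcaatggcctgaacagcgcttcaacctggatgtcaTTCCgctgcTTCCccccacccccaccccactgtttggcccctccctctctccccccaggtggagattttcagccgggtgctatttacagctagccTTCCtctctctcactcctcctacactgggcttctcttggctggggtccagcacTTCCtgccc
GGAA on either strand occurred in 93.4% of windows. The longer PU.1 letters GAGGAAGT were not found here and occurred in 2.44% of windows. At 10 months Asb10 had 2.61, 1.82, 2.64, 2.66 and 2.64 CPM in KI replicates 3 to 7, against 0.843, 1.26, 1.26, 1.40 and 1.21 CPM in control replicates 6 to 10. At 3 months it had 0.0946, 0.164, 0.141, 0.0813 and 0.122 CPM in KI replicates 3 to 7, against 0.144, 0.231, 0.112, 0.342 and 0.137 CPM in control replicates 6 to 10. The genotypes were apart at 10 months and overlapped at 3 months, where counts were 4 to 8 in KI and 5 to 17 in control libraries. The log2 fold change of KI over control was 1.05 ± 0.19 (SE) at 10 months and -0.67 ± 0.31 at 3 months. Without control replicate 9, the highest library at 3 months, the value at 3 months was -0.37.

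Averaged over genotypes Asb10 was 11.0-fold higher at 10 than at 3 months (log2 fold change 3.47 ± 0.17 (SE), edgeR adjusted p = 6.64e-12), rank 18 of 19623 tested genes by log2 fold change. It passed the low-count filter through its libraries at 10 months, with 42 to 146 counts each, against 4 to 17 at 3 months. With no low-count filter the averaged age difference was 3.46 ± 0.18 (edgeR adjusted p = 1.02e-13). In KI libraries it averaged 2.48 ± 0.368 CPM at 10 months and 0.121 ± 0.0337 CPM at 3 months (SD, n = 5), 20.0-fold apart in the fit. In control libraries it averaged 1.19 ± 0.209 CPM at 10 months and 0.193 ± 0.0943 CPM at 3 months, 6.08-fold apart. Asb10 was also the only 1 of the 6 genes without overlap between control libraries of the 2 ages, beside 5.69% of all tested genes (4.56% higher and 1.13% lower), and nothing is read from that count because the control libraries at 10 months took part in its choice.

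Without both libraries that stood apart, the averaged age difference of Asb10 was 3.42 ± 0.19 (SE; edgeR adjusted p = 5.44e-11). The age differences in KI libraries were then 4.23 ± 0.28 for Asb10, -0.31 ± 0.09 for Rreb1 and -0.23 ± 0.07 for Emp2.

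**Figure D4:**
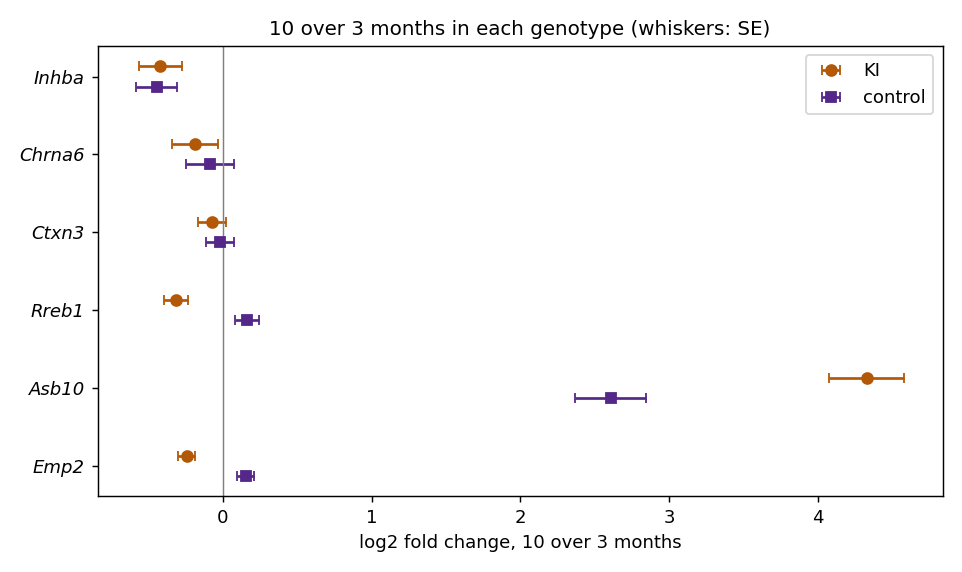
Log2 fold change of 10 over 3 months (x axis) for the 6 genes in KI (circles) and control libraries (squares), with whiskers of 1 SE from the edgeR fit. Asb10 stands at 4.32 in KI and 2.61 in control libraries, Inhba at -0.42 and -0.44, and Rreb1 and Emp2 lie below 0 in KI and above 0 in control libraries; these values share libraries with the choice and carry no test.

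Microglia markers rose with age, as Asb10 did. All 8 were called higher with age averaged over genotypes (median log2 fold change 0.88), beside 8.19% of all tested genes. For KI over control at 10 months all 8 lay above 0 (median 0.12), where Asb10 stood at 1.05. At 3 months 5 of the 8 did (median 0.04), where Asb10 stood at -0.67. The 8 were uneven: at 10 months Cst7 averaged 53.6 CPM in KI and 33.2 CPM in control libraries. In the same order Trem2 averaged 55.5 and 41.4 CPM, and Tmem119 19.1 and 18.6 CPM. Between genotypes 0 of the 8 were called at either age, beside 0.0612% of all tested genes at 10 months and 0.0255% at 3 months. The summed level of the 8 ran from 473 to 585 CPM in KI and from 400 to 512 CPM in control libraries at 10 months. At 3 months it ran from 230 to 260 CPM in KI and from 204 to 261 CPM in control libraries. None of the 8 was at 0 in any library. With the microglia score as a covariate Asb10 stood at 0.79 ± 0.22 (SE) for KI over control at 10 months. Its age difference beside that score, which does not overlap between ages, was 1.53 ± 0.92 averaged over genotypes (edgeR adjusted p = 0.972). The part of the score and that of age cannot be told apart, and the part of microglia in the genotype difference was not tested. The genes with deviations most like those of Asb10 were Syk (r = 0.83), Cd14 (r = 0.76) and Csf3r (r = 0.75), over 20 libraries. By plain log2 CPM, which also follows age, they were Ncf1 (r = 0.98), Trem2 (r = 0.98) and Tyrobp (r = 0.98).

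Of 22 genes of the ASB family and its ligase, 15 were tested. Asb16, another family member, rose by 0.70 ± 0.10 (SE) with age averaged over genotypes (edgeR adjusted p = 4.50e-05), and Asb11 by 0.39 ± 0.12 in KI libraries (edgeR adjusted p = 0.0487). Of the 14 genes other than Asb10, Asb16 was the only call averaged over genotypes, beside 12.1% of all tested genes (8.19% higher and 3.95% lower). It was also the only one in control libraries, at 0.78, beside 4.07% of all tested genes (3.72% higher and 0.357% lower). In KI libraries 8.06% of all tested genes were called (5.66% higher and 2.41% lower). The median of the 15 for age averaged over genotypes was 0.002, against -0.003 over all tested genes. The neighbours Gbx1 and 4931409K22Rik, 5495 and 2456 bases away, stood at 0.09 ± 0.29 and -0.34 ± 0.29 with age (edgeR adjusted p = 0.886 and 0.513), at no more than 36 and 17 counts per library. Of 30 tested genes within 500 kb, Nupl2 and Gm5575 were called with age averaged over genotypes, beside 12.1% of all tested genes. Between genotypes 0 of the 30 were called, beside at most 0.0764% of all tested genes in any genotype comparison.

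**Figure D5:**
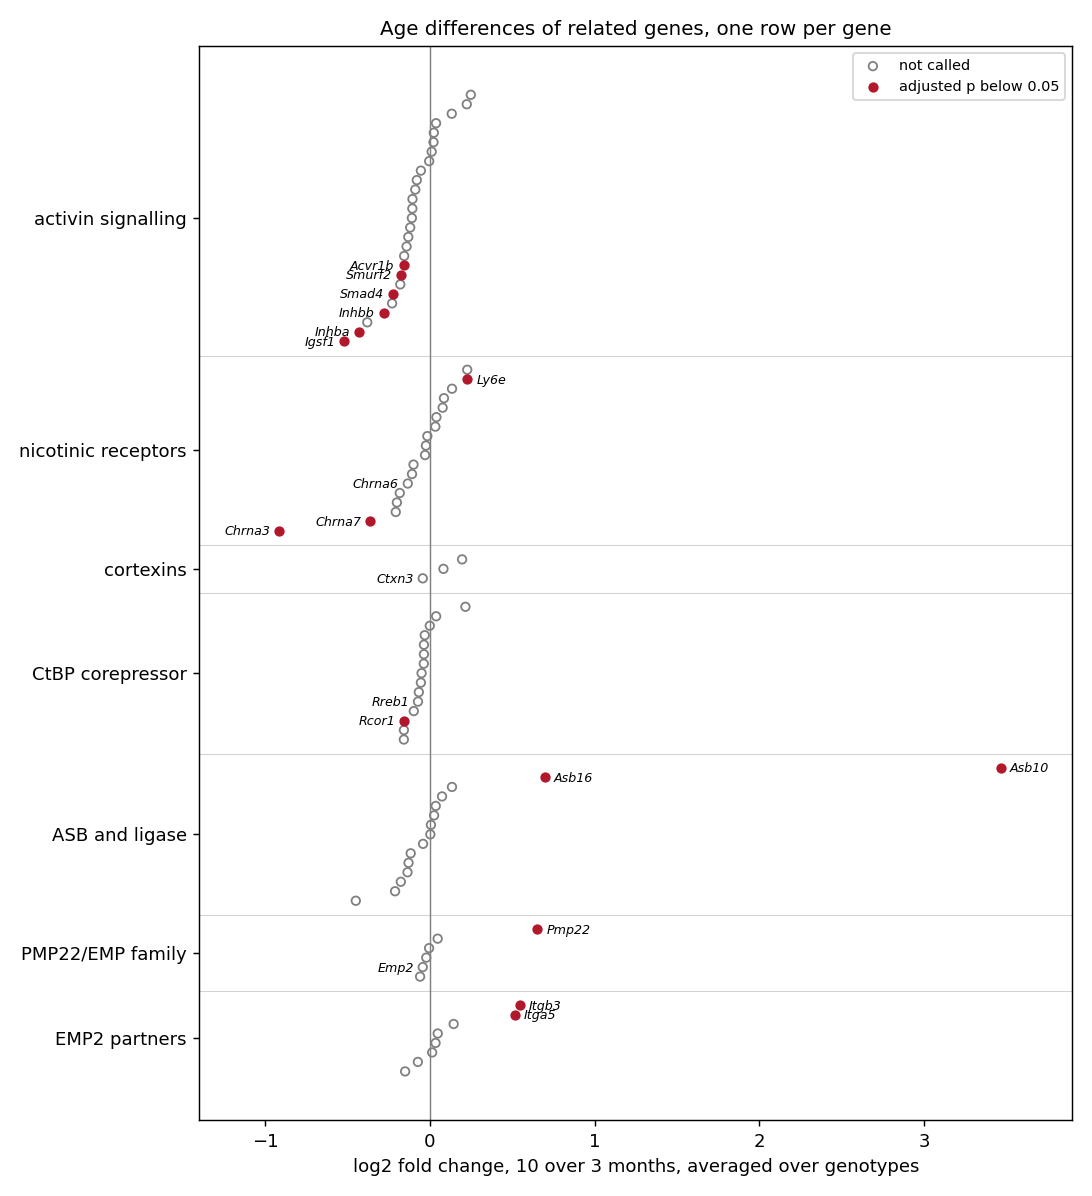
Log2 fold change of 10 over 3 months averaged over genotypes (x axis) for each tested gene of 7 lists related to the 6 genes, 1 row a gene; filled points have an edgeR adjusted p below 0.05 and are named, as are the 6 genes. Asb10 stands far from the rest at 3.47, and the 6 called genes of activin signalling all lie below 0.

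Whether the genotype difference itself differed between ages was asked with the interaction of genotype and age, in which 0 of 19623 genes were called by edgeR (0%), with 883 at an unadjusted p under 0.05, against 4 called by DESeq2 and 3 by limma-voom. Asb10 stood at 1.72 ± 0.37 (SE), Emp2 at -0.40 ± 0.08 and Rreb1 at -0.48 ± 0.12, each chosen at a single age, which leans them towards a difference here, so they carry no test. Inhba, Chrna6 and Ctxn3 stood between -0.10 and 0.03. Without both libraries that stood apart the values were 1.62 for Asb10, -0.39 for Emp2 and -0.48 for Rreb1.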

How the data were processed

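Bulk RNA-seq of cortex was analysed in 20 libraries of 4 groups of 5. The authors deposited raw counts per gene for all libraries in a single table, with gene lengths and coordinates. Per the submitters' processing notes, mm10 was the genome build. Which aligner, counter, strand setting and annotation release produced the counts is not given in the sources used here. Counts were fitted with edgeR 4.0.16 in R 4.3.3 (TMM scaling, filterByExpr, quasi-likelihood test, a mean per group, Benjamini-Hochberg adjustment over 19623 genes, threshold 0.05), with 16 residual degrees of freedom. CPM used TMM-scaled library sizes, RPKM the deposited gene lengths, and log2 CPM for scores and likeness a prior count of 2. Totals ran from 42896149 to 57447015 counts, so a gene with few counts, such as Asb10 at 3 months, is the least precise. All 37 mitochondrial genes were 0 in every library.

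The 6 genes and the gene and marker lists were chosen with earlier results of these data known. Genes were named as follows: the 6 genes; for each, the 3 genes of at least 1 CPM with the highest correlation of deviations from group means; called genes of each list; the nearest neighbours and called genes within 500 kb; and the first genes outside the choice. Promoters were matched by symbol for 4 of the 6 genes (not Chrna6 and Ctxn3) in RefSeq tables of GRCm38.p6. The test was also run on simulated data, with changes only in genes averaging at least 1 CPM, above Asb10 at 0.996 CPM. The outcome is not given here, and nothing is read from it. Alternatives were RLE scaling, other filters, DESeq2 1.42.0, limma-voom (limma 3.58.1), the replicate block, marker scores as covariates, only the compared libraries, and leaving out libraries. The microglia score, and leaving out both libraries that stood apart, were added after seeing the data.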

Additional observations from a re-analysis of the deposited data

Results flagged for a closer look

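Asb10 in KI replicate 4 at 10 months had 1.82 CPM, far below the other 4 KI libraries at that age at 2.61 to 2.66 CPM. The gap to the nearest library took 0.940 of the group's range. It was the only library so far from the others among 24 sets of 5 libraries examined, of which chance alone gives about 1 in 20. It was still above every control library at 10 months.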

How the results depend on the processing

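Counts of called genes depended on the tool. For KI against control the counts were 12 by DESeq2 and 12 by limma-voom at 3 months (5 by edgeR), 59 and 67 at 10 months (12 by edgeR), and 49 and 53 averaged over ages (15 by edgeR). At 10 months they were 7 with the choroid plexus score, 6 with the microglia score and 7 with only the compared libraries, and averaged over ages 9 with the thalamus score and 9 with the microglia score. Limma-voom called 4257 genes for age averaged over genotypes (2383 by edgeR), 3055 in KI (1582) and 1260 in control libraries (799). With the thalamus score these were 480, 257 and 499, and with only the compared libraries 958 in KI. With the microglia score, tried after seeing the data and not overlapping between ages, 0 genes were called for age in each of the 3 comparisons, and averaged over genotypes the age call of Asb10 was lost and Inhba turned to 0.018. The interaction had 4 calls by DESeq2 and 3 by limma-voom, against 0 by edgeR. The cause was not tested.

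With the replicate number as a block, 4 genes were called at 10 months and 4 averaged over ages between KI and control. The numbers share only a number: of 18 same-numbered pairs of libraries, 3 had a correlation of deviations over 0.1. Leaving out each library in turn gave 4 to 5 called genes between genotypes at 3 months, 7 to 14 at 10 months and 10 to 17 averaged over ages; 1958 to 2686 for age averaged over genotypes, 1117 to 1670 in KI and 633 to 742 in control libraries; and 0 for the interaction. The 4 libraries that gave 7 calls at 10 months, against 12, were KI replicate 3 and control replicates 6, 9 and 10 at that age. Of 1043 alternative log2 fold changes for the 6 genes, 22 had the other sign, and Inhba with the microglia score, averaged over genotypes, was the only one of these with an age call to lose. Of 12 rankings of most alike genes by Spearman or by plain log2 CPM, 7 shared fewer than 2 of the 3 genes named. Depth limits Asb10 at 3 months, with 4 to 17 counts a library.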
